A study of Mus musculus with 6 samples.

Results

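The 41 genes described here encode the enzymes, regulators and transporters of cholesterol and fatty acid metabolism, measured by RNA-seq in activated mouse CD8 T cells. They were chosen by name, 21 for sterols and 20 for fatty acids, from a table of 46517 gene identifiers. The choice was made with earlier results of these data known. All 41 passed the filter on low counts, which kept 12407 genes. The tested libraries came from cells given supernatant of basophils, rare granulocytes, that had been kept for 2 days in IL-2 plus IL-3 at 3 ng/mL (IL-3 supernatant, 3 libraries). The comparison libraries came from cells given supernatant of basophils kept in IL-2 plus PBS (PBS supernatant, 3 libraries). In both groups, naive T cells of C57BL/6J spleens and lymph nodes were stimulated for 3 days on plate-bound antibody to CD3, with antibody to CD28 and IL-2, and supernatant was present between day 1 and day 2. IL-3 left over in the supernatant and products of the basophils cannot be told apart in this design. The labels do not say whether the replicates were separate cultures or mice, so a p-value here reflects the spread among these 6 libraries alone, and that spread may be technical.

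Cells make cholesterol from acetyl-CoA through mevalonate, farnesyl diphosphate, squalene and lanosterol. Fatty acids are built from the same acetyl-CoA by fatty acid synthase, then lengthened by elongases, given double bonds by desaturases and activated by acyl-CoA synthetases, or burned in mitochondria after the carnitine shuttle has carried them in. T cells switch on both synthetic pathways, largely through the SREBP transcription factors, when they are activated and begin to divide.

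Summed expected counts per library were 19283416 to 22174902 with IL-3 supernatant and 17377052 to 18753617 with PBS supernatant. Levels are given in CPM, the counts relative to the TMM-scaled total of their library, and 0 counts allow a level of up to 0.135 to 0.173 CPM (a limit of 3 counts, which covers counting error only). Principal component 1 (63% of the variance) parted the 2 groups, and component 2 (14.7%) set PBS supernatant replicate 2 apart. All 8 markers of CD8 T cells were present, with a summed level of 1708 to 1864 CPM with IL-3 supernatant and 2505 to 2688 CPM with PBS supernatant. Of the 8, 6 fell at an edgeR adjusted p below 0.05 (75%, against 16.1% of all tested genes). Cd8a fell most (log2 -1.17 ± 0.05), and Lck and Zap70 did not pass. Of 8 basophil markers, Mcpt8, Prss34, Fcer1a and Ms4a2 had no count in any library, and the list summed to 0.153 to 0.991 CPM with IL-3 supernatant and 0.277 to 0.342 CPM with PBS supernatant. The 7 B cell markers summed to 110 to 131 CPM with IL-3 supernatant and 292 to 324 CPM with PBS supernatant, and without Ighm to 2.99 to 3.27 CPM with IL-3 supernatant and 2.78 to 3.82 CPM with PBS supernatant. The 3 CD4 T cell markers summed to 17.6 to 19.7 CPM with IL-3 supernatant and 13.5 to 15.2 CPM with PBS supernatant, and within that list Zbtb7b averaged 18 CPM with IL-3 supernatant and 6.36 CPM with PBS supernatant, Foxp3 averaged 0.163 CPM with IL-3 supernatant and 7.34 CPM with PBS supernatant, and Cd4 averaged 0.301 CPM with IL-3 supernatant and 0.692 CPM with PBS supernatant. The 8 myeloid markers summed to 1.54 to 2.71 CPM with IL-3 supernatant and 2.55 to 3.02 CPM with PBS supernatant, and the 3 NK cell markers to 0.36 to 0.675 CPM with IL-3 supernatant and 0.554 to 0.668 CPM with PBS supernatant. The part of these markers in the results was not tested, and in bulk RNA a change in the number of cells of a type and a change in RNA per cell cannot be told apart.

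With IL-3 supernatant, 10 of the 41 genes rose and 10 fell at an adjusted p below 0.05 (edgeR quasi-likelihood test, Benjamini-Hochberg over all 12407 genes), and 21 did not pass. The share called was 48.8%, against 30.9% of all tested genes. As the genes were chosen with earlier results of these data known, the shares describe the list and do not test it. For genes called higher it was 24.4% against 14.8% of all tested genes, and for genes called lower 24.4% against 16.1%. These are abundant transcripts: the median level in TPM, which is scaled for transcript length, lay at percentile 81.2 of the tested genes. By average log2 CPM, which is not scaled for length, 36 of the 41 belonged to the more abundant 6204 genes. Of the 36, 18 were called. Of the 6204, 34.9% were called, 15.1% higher and 19.8% lower. The groups did not overlap for 25 of the 41 genes (61%), against 43.6% of all tested genes. Changes were small. The median absolute log2 fold change was 0.16 over the 41 genes and 0.20 over all tested genes, and only Scd1 and Abcg1 changed by at least 2-fold, which 7.79% of all tested genes did. The fatty acid genes moved more often (8 higher, 5 lower, 7 not passed of 20) than the sterol genes (2 higher, 5 lower, 14 not passed of 21), a difference in counts that was not tested. The share called was 65% of the fatty acid genes. It was 33.3% of the sterol genes, near the 30.9% of all tested genes and the 34.9% of the more abundant ones. The order was the reverse among the other lipid genes described below. There, 57.9% of other sterol genes were called, against 29.4% for fatty acid synthesis and uptake and 21.1% for oxidation. The contrast thus holds for the 41 genes and depends on the choice of list. With limma on log2(TPM + 1) of the 5 libraries that have TPM per gene, 6 of the 20 calls missed the threshold, those of Lss, Elovl6, Acsl1, Acsl4, Acsl5 and Acadvl, and 15 of the 20 did so when no filter on low values was used. Leaving out PBS supernatant replicate 2 ended 1 of the 20 calls by edgeR, that of Elovl6.

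**Figure D1:**
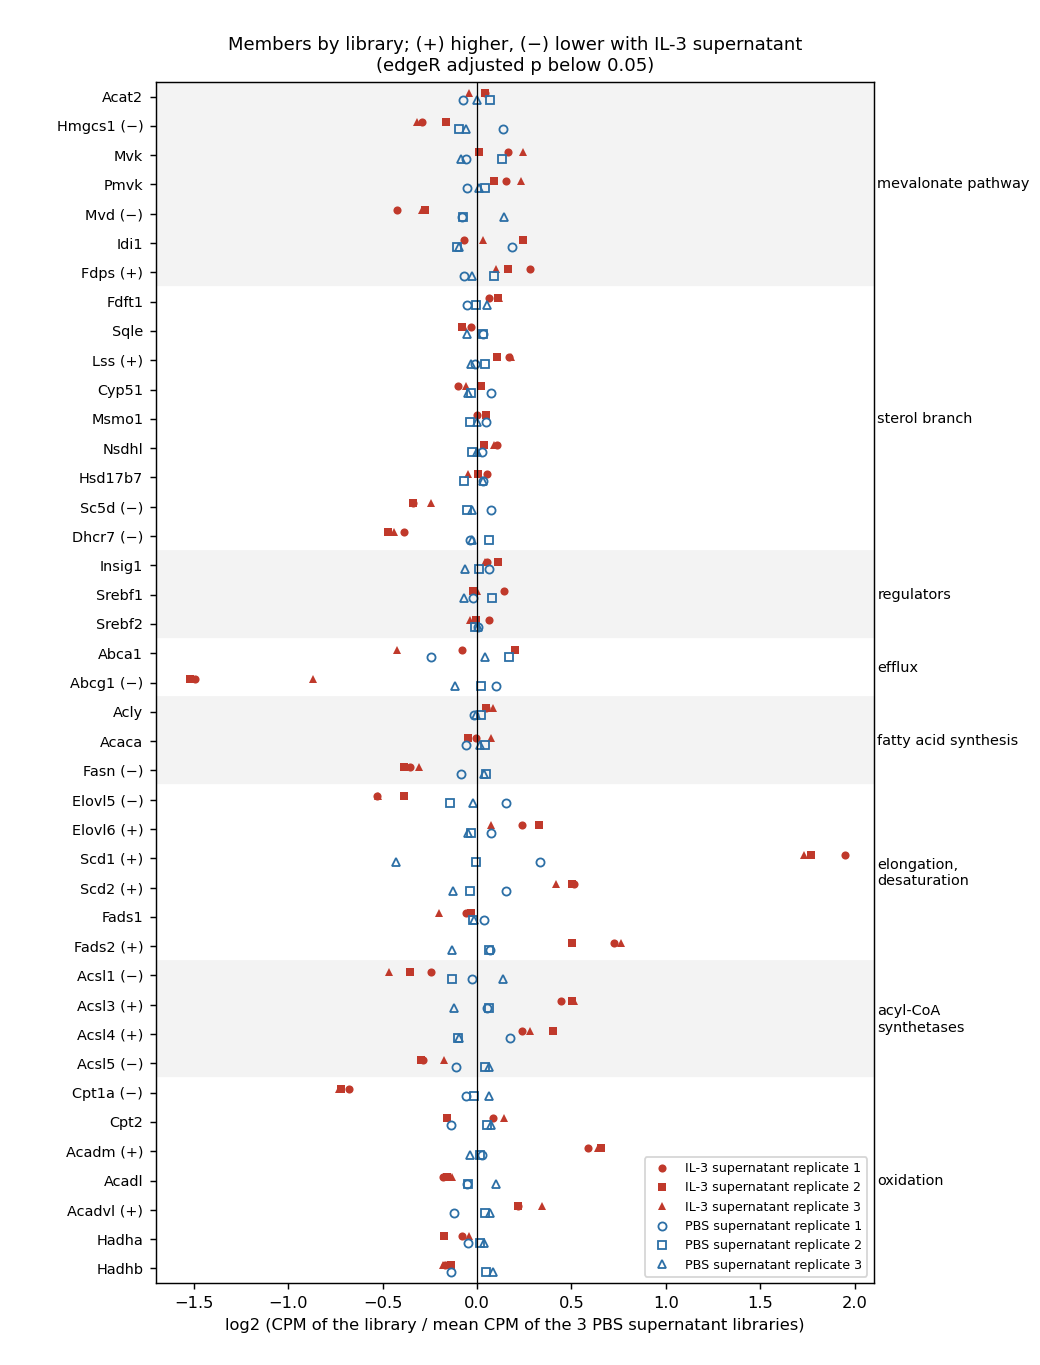
Log2 ratio of CPM in each library to the mean CPM of the 3 PBS supernatant libraries (x axis) for all 41 genes by role (y axis). Filled red symbols are IL-3 supernatant libraries and open blue symbols PBS supernatant libraries, with shapes for replicates and (+) or (−) for the 10 genes called higher and the 10 called lower. Scd1 lies farthest right and Abcg1 farthest left, while most sterol enzymes cluster at 0.

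In the mevalonate pathway, 1 enzyme rose, 2 fell and 4 did not pass, so that 42.9% were called, against 30.9% of all tested genes. The summed level of its 7 enzymes was 1001 ± 31.2 TPM with IL-3 supernatant and 975 ± 56.1 TPM with PBS supernatant (SD, n = 3 each), with overlapping groups. Hmgcs1, the cytosolic HMG-CoA synthase (ENSMUSG00000093930, chr13:119690379-119708260 in GRCm38, plus strand), had 339, 370 and 333 CPM in IL-3 supernatant libraries, against 457, 389 and 398 CPM in PBS supernatant libraries. All 3 IL-3 supernatant values lay below all 3 PBS supernatant values, the nearest pair being 370 and 389 CPM, and the change on the log2 scale was -0.26 ± 0.06 (SE, edgeR adjusted p = 0.0064). Mvd, which decarboxylates mevalonate diphosphate to isopentenyl diphosphate, had 36.2, 40.1 and 39.7 CPM with IL-3 supernatant and 46.0, 46.2 and 53.7 CPM with PBS supernatant, again without overlap (log2 -0.33 ± 0.08, edgeR adjusted p = 0.0065). Without PBS supernatant replicate 3, the highest of the 6, the Mvd change was -0.25 and missed the threshold (edgeR adjusted p = 0.054). Mvd overlaps Gm20388 on the other strand, and the strand setting of the counting is not given. Mvd held whole counts in all 6 libraries, so the expected counts show no reads divided between Mvd and another gene.

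Fdps, the farnesyl diphosphate synthase and the most abundant of the 7, was the mevalonate enzyme that rose. It had 205, 189 and 181 CPM with IL-3 supernatant and 161, 180 and 166 CPM with PBS supernatant. The groups did not overlap but came within 1 CPM of each other, and the log2 fold change of 0.18 ± 0.06 (edgeR adjusted p = 0.03) was lost without IL-3 supernatant replicate 1 (0.17), PBS supernatant replicate 1 (0.06) or PBS supernatant replicate 3 (0.11), each an adjusted p from edgeR. Fdps held fractional counts in 4 libraries, so some of its reads were divided with another gene. The other 4 mevalonate enzymes did not pass. Acat2, the thiolase that joins 2 acetyl-CoA, had a log2 fold change of 0.02, and the kinases Mvk and Pmvk had 0.14 and 0.16. Idi1, which isomerises isopentenyl diphosphate, had 348, 432 and 373 CPM with IL-3 supernatant and 415, 339 and 341 CPM with PBS supernatant, a spread within each group wider than the difference between them.

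Beyond farnesyl diphosphate, the sterol branch from squalene to cholesterol also had overlapping sums, with 714 ± 13.7 TPM with IL-3 supernatant and 734 ± 36.9 TPM with PBS supernatant (SD, n = 3 each), while 2 enzymes of its last steps fell. Dhcr7, the reductase that makes cholesterol from its immediate precursor (ENSMUSG00000058454, chr7:143823145-143848410 in GRCm38, plus strand), had 50.5, 47.6 and 48.7 CPM with IL-3 supernatant and 64.3, 68.9 and 64.7 CPM with PBS supernatant. It fell by 25.9%, with a gap between the groups far wider than the spread in either (log2 -0.43 ± 0.07, edgeR adjusted p = 0.0001), and kept its call under all 18 processing alternatives. Sc5d, the sterol desaturase that acts just before Dhcr7, had 69.4, 69.4 and 74.2 CPM with IL-3 supernatant, against 92.3, 84.6 and 86.0 CPM with PBS supernatant. The groups did not overlap (log2 -0.30 ± 0.06, edgeR adjusted p = 0.0011).

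Lss, which closes the sterol ring system to form lanosterol, rose slightly, with 161, 154 and 162 CPM with IL-3 supernatant and 142, 147 and 140 CPM with PBS supernatant (log2 0.15 ± 0.05, edgeR adjusted p = 0.041). That call was lost without IL-3 supernatant replicate 1 (0.12), IL-3 supernatant replicate 3 (0.13) or PBS supernatant replicate 3 (0.15), each an adjusted p from edgeR. The other 6 enzymes of the branch did not pass, and their log2 fold changes ran from -0.06 for the squalene epoxidase Sqle to 0.10 for the squalene synthase Fdft1. Between them lay Cyp51 (-0.04), the lanosterol demethylase, and Msmo1 (0.03), Nsdhl (0.08) and Hsd17b7 (0.00), which strip the remaining methyl groups. Cyp51, the most abundant of the branch, had 360, 391 and 371 CPM with IL-3 supernatant and 406, 378 and 373 CPM with PBS supernatant, and the groups overlapped. Fdft1 overlaps Ctsb and Cyp51 overlaps Akap9 on the other strand. Lss held fractional counts in all 6 libraries, so some of its reads were divided with another gene. Over all 16 synthesis enzymes, 2 rose, 4 fell and 10 did not pass. The share called, 37.5%, was near the 30.9% of all tested genes and the 34.9% of the more abundant ones. Their summed level was 1715 ± 28.4 TPM with IL-3 supernatant and 1708 ± 92.6 TPM with PBS supernatant, a difference of 0.398%.

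The 3 regulators among the 41 genes did not pass the test. Srebf2, which encodes the SREBP transcription factor of sterol synthesis, had 436, 416 and 408 CPM with IL-3 supernatant and 419, 415 and 420 CPM with PBS supernatant (log2 0.01 ± 0.05, edgeR adjusted p = 0.93). Srebf1, whose SREBP favours fatty acid synthesis, had 139, 124 and 126 CPM with IL-3 supernatant and 124, 133 and 120 CPM with PBS supernatant (log2 0.05 ± 0.06), and Insig1, the membrane protein that holds SREBP back when sterols are plentiful, had 143, 149 and 142 CPM with IL-3 supernatant and 144, 139 and 132 CPM with PBS supernatant (log2 0.07 ± 0.06). For each of the 3 genes the groups overlapped. SREBP is activated by cleavage of the protein, which transcript levels do not report. Of the genes outside the 41 that act on that cleavage, and named after their values were seen, the escort gene Scap (log2 -0.23 ± 0.06, edgeR adjusted p = 0.0084) and the protease gene Mbtps1 (log2 -0.17 ± 0.06, edgeR adjusted p = 0.031) fell, and Insig2, the relative of Insig1, rose (log2 0.38 ± 0.09, edgeR adjusted p = 0.0046). Mbtps2, the other protease gene, did not pass (log2 0.11 ± 0.10). The Scap call was lost without IL-3 supernatant replicate 2 (0.059) or PBS supernatant replicate 2 (0.084), and the Mbtps1 call without IL-3 supernatant replicate 1 (0.078), IL-3 supernatant replicate 2 (0.16), PBS supernatant replicate 2 (0.11) or PBS supernatant replicate 3 (0.059), each an adjusted p from edgeR. Srebf1 overlaps Rai1 on the other strand.

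Promoters were searched for sites known to serve SREBP in the RefSeq promoter table (GRCm38.p6, from 250 bases before to 50 after the transcription start). It holds 34 of the 41 genes, among them 9 of the 10 that fell and 7 of the 10 that rose. Absent were Abcg1, which fell most, and Fdps, Scd1 and Scd2, which rose. Fdft1, Sqle and Fads1, which did not pass, were also absent. The split of motifs by call leaves these genes out and was not tested. The sterol regulatory element TCACNCCAC, on either strand, was found in 2 of the 34 (5.88%), against 1.44% of all 27025 genes of the table. Both of them, Hmgcs1 and the acyl-CoA synthetase gene Acsl1, fell. CCAAT, the site of NF-Y, a cofactor of SREBP, was found on either strand in 22 of the 34 (64.7%), against 41.1% of all genes. It was present in all 9 matched genes that fell, in 2 of the 7 that rose and in 11 of the 18 that did not pass, against 43.8%, 44.8% and 42.8% of all tested genes called lower, called higher and not passed. GGGCGG, the site of SP1, was found in 26 of the 34 (76.5%), against 38.2% of all genes of the table but 71%, 70.5% and 69.1% of all tested genes called lower, called higher and not passed, which is near the share of the members. None of the 34 held 2 copies of AGGTCA placed 1 base apart (the PPAR type) or 4 bases apart (the LXR type), which 0.0481% and 0.0148% of all genes held. The motifs were counted separately and may overlap. A match is a description of the sequence and not a bound site. The windows each hold 60 bases in the direction of the gene, with capitals for the sterol regulatory element in the first pair and for CCAAT or its complement in the rest. They are shown because they cover the 2 element matches, the genes that fell most among those with more than 1 CCAAT in a window, and both genes that rose with a CCAAT. The windows of Acsl1 and Dhcr7 belong to RefSeq starts that lie inside the GENCODE span of the gene. Whether these cells use those starts was not examined.
Hmgcs1, element, chr13:119690188-119690247, plus strand: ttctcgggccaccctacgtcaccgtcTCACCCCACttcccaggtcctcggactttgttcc
Acsl1, element, chr8:46490864-46490923, plus strand: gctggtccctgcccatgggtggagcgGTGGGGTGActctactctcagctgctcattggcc
Dhcr7, CCAAT, chr7:143830119-143830178, plus strand: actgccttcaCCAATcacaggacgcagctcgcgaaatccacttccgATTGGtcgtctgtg
Elovl5, CCAAT, chr9:77917293-77917352, plus strand: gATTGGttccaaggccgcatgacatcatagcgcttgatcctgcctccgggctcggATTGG
Fasn, CCAAT, chr11:120824590-120824649, minus strand: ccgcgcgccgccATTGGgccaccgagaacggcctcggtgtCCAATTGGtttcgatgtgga
Mvd, CCAAT, chr8:122443434-122443493, minus strand: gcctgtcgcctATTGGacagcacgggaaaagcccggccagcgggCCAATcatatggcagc
Lss, CCAAT, chr10:76531515-76531574, plus strand: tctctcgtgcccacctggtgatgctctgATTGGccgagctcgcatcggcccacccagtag
Acsl3, CCAAT, chr1:78657782-78657841, plus strand: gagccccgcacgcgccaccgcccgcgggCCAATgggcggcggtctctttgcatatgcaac

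Of the 2 cholesterol exporters, Abcg1 fell more than any other member. Abcg1 passes cholesterol to lipoprotein particles and is a classical target of the LXR sterol receptors (ENSMUSG00000024030, chr17:31057675-31117988 in GRCm38, plus strand). It had 5.00, 4.91 and 7.71 CPM with IL-3 supernatant, against 15.1, 14.3 and 13.0 CPM with PBS supernatant. IL-3 supernatant replicate 3 was the highest of its group and still well below every PBS supernatant library (log2 -1.27 ± 0.17, a fall of 58.6%, edgeR adjusted p = 1.8e-05). Abca1, which loads cholesterol onto apolipoprotein A-I and is another LXR target, had 3.30, 4.01 and 2.60 CPM with IL-3 supernatant and 2.95, 3.93 and 3.59 CPM with PBS supernatant. The groups overlapped at this low level (log2 -0.08 ± 0.25, edgeR adjusted p = 0.86), and with this SE a moderate change in either direction could be missed. Per length both exporters were scarce, with Abcg1 at 3.19 ± 0.893 TPM with IL-3 supernatant and 7.54 ± 0.663 TPM with PBS supernatant, and Abca1 at 0.629 ± 0.13 TPM with IL-3 supernatant and 0.681 ± 0.112 TPM with PBS supernatant (SD, n = 3 each).

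In fatty acid synthesis, the first enzymes did not pass and the last one fell. Fasn, the multienzyme that assembles palmitate (ENSMUSG00000025153, chr11:120805846-120824547 in GRCm38, minus strand), had 994, 972 and 1029 CPM with IL-3 supernatant, against 1201, 1313 and 1303 CPM with PBS supernatant. It fell by 21.5% with no overlap between groups (log2 -0.35 ± 0.05, edgeR adjusted p = 5.3e-05). Acly, which makes cytosolic acetyl-CoA from citrate, had 475, 474 and 487 CPM with IL-3 supernatant and 454, 465 and 457 CPM with PBS supernatant; its groups did not overlap, yet a log2 fold change of 0.06 ± 0.05 did not pass (edgeR adjusted p = 0.36). Acaca, the carboxylase that makes malonyl-CoA, had 315, 306 and 333 CPM with IL-3 supernatant and 303, 325 and 319 CPM with PBS supernatant (log2 0.01 ± 0.05, edgeR adjusted p = 0.90). The 3 genes summed to 518 ± 13.1 TPM with IL-3 supernatant and 560 ± 11.7 TPM with PBS supernatant, without overlap. Without Fasn the sums were 309 ± 5.83 TPM with IL-3 supernatant and 301 ± 12.8 TPM with PBS supernatant, and they overlapped (SD, n = 3 each).

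The desaturases held the largest rise of all 41 genes. Scd1 and Scd2 encode stearoyl-CoA desaturases, which turn saturated into monounsaturated fatty acids such as oleate. Scd1 (ENSMUSG00000037071, chr19:44394455-44407879 in GRCm38, minus strand) had 283, 250 and 243 CPM with IL-3 supernatant, against 92.4, 73.1 and 54.4 CPM with PBS supernatant. The lowest IL-3 supernatant library was far above the highest PBS supernatant library, and the mean was 259 ± 21.3 CPM with IL-3 supernatant and 73.3 ± 19.0 CPM with PBS supernatant (SD, n = 3 each; log2 1.82 ± 0.22, edgeR adjusted p = 0.0044). Scd1 was also the most variable member among PBS supernatant libraries, with a coefficient of variation of 25.9% against a median of 4.88% over the 41 genes. Over 18 processing alternatives the log2 fold change of Scd1 ran from 1.64 to 2.02, and the call held under each.

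Scd2, the paralog that was far more abundant in these T cells (ENSMUSG00000025203, chr19:44293674-44306864 in GRCm38, plus strand), had 1693, 1680 and 1583 CPM with IL-3 supernatant, against 1317, 1154 and 1083 CPM with PBS supernatant. It rose by 39.4% without overlap (log2 0.48 ± 0.06, edgeR adjusted p = 3.6e-05). Both genes held fractional counts in all 6 libraries, which means that some of their reads were divided with another gene, and reads of such a similar pair may have been split between them. Per length, the ratio of Scd1 to Scd2 was 0.176 ± 0.0108 with IL-3 supernatant and 0.069 ± 0.0114 with PBS supernatant (SD, n = 3 each). Their summed level was 698 ± 23.5 TPM with IL-3 supernatant and 448 ± 58.5 TPM with PBS supernatant, without overlap between groups.

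The polyunsaturated desaturases, which act on essential fatty acids, gave different calls, a difference that was not itself tested. Fads2, which makes the first of their double bonds (ENSMUSG00000024665, chr19:10062765-10101746 in GRCm38, minus strand), had 59.4, 50.8 and 60.8 CPM with IL-3 supernatant, against 37.6, 37.5 and 32.7 CPM with PBS supernatant. It rose by 58.6% (log2 0.67 ± 0.09, edgeR adjusted p = 1.7e-05), and every IL-3 supernatant library lay above every PBS supernatant library. Fads1, which makes a later double bond, had 66.6, 67.9 and 60.3 CPM with IL-3 supernatant and 71.3, 68.3 and 68.6 CPM with PBS supernatant; it did not pass (log2 -0.10 ± 0.07, edgeR adjusted p = 0.31). The ratio of Fads2 to Fads1 in TPM was 2.02 ± 0.297 with IL-3 supernatant and 1.18 ± 0.0855 with PBS supernatant (SD, n = 3 each). All 4 desaturases together had 809 ± 23.6 TPM with IL-3 supernatant and 532 ± 63.4 TPM with PBS supernatant, a difference of 51.9%.

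The 2 elongases changed in opposite directions. Elovl5, which lengthens polyunsaturated fatty acids (ENSMUSG00000032349, chr9:77917364-77984519 in GRCm38, plus strand), had 94.3, 104 and 94.6 CPM with IL-3 supernatant, against 151, 123 and 134 CPM with PBS supernatant, and fell by 28.0% without overlap (log2 -0.47 ± 0.07, edgeR adjusted p = 0.00012). Elovl6, which lengthens palmitate to stearate, the substrate of Scd1 and Scd2, had 93.0, 99.2 and 82.9 CPM with IL-3 supernatant and 83.1, 77.1 and 76.4 CPM with PBS supernatant. IL-3 supernatant replicate 3 lay just below PBS supernatant replicate 1, so the groups overlapped (log2 0.22 ± 0.07, edgeR adjusted p = 0.025). The Elovl6 call was lost without IL-3 supernatant replicate 1 (0.087), IL-3 supernatant replicate 2 (0.12), PBS supernatant replicate 2 (0.066) or PBS supernatant replicate 3 (0.1), each an adjusted p from edgeR. The ratio of Elovl6 to Elovl5 in TPM was 0.471 ± 0.0439 with IL-3 supernatant and 0.301 ± 0.0277 with PBS supernatant (SD, n = 3 each).

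**Figure D2:**
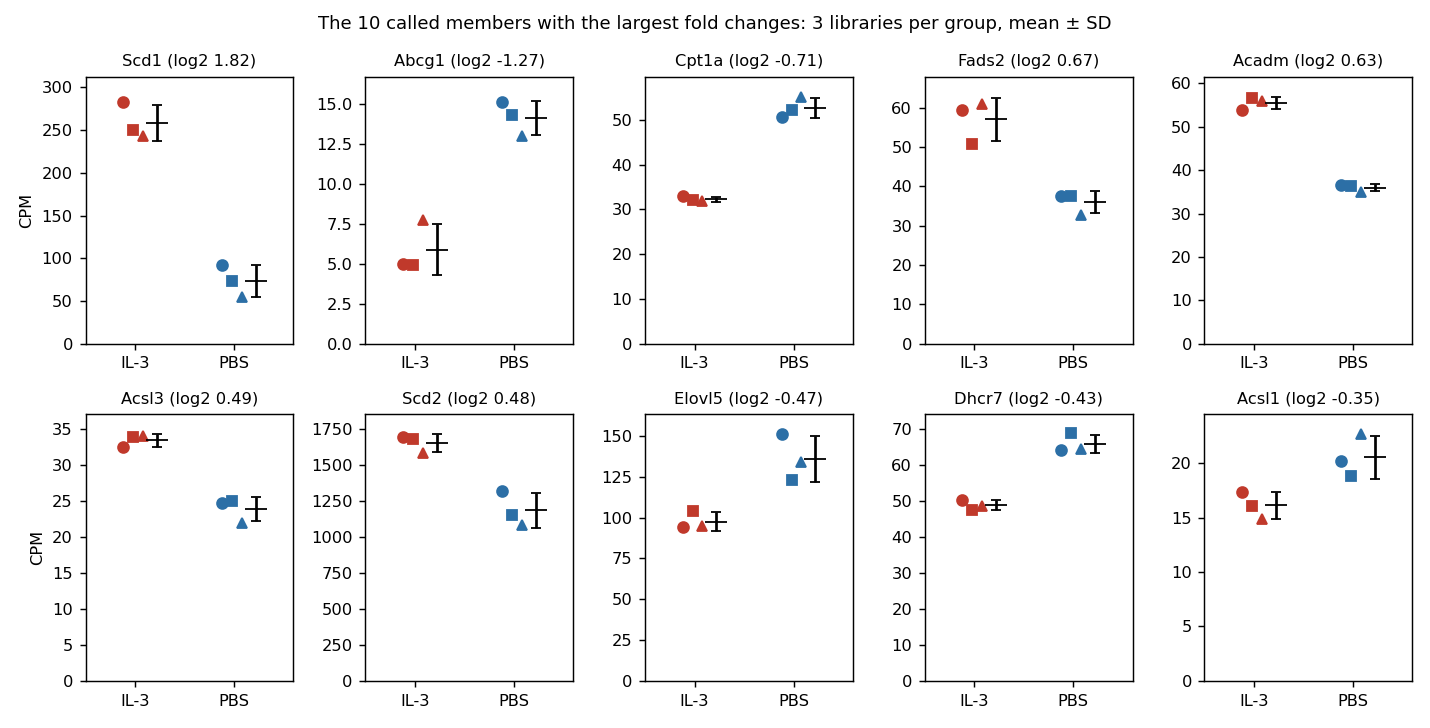
CPM (y axis, from 0) of the 10 called genes with the largest fold changes in IL-3 supernatant (red, left) and PBS supernatant libraries (blue, right), where symbols are single libraries with the shape giving the replicate, and bars give the mean ± SD of 3 libraries. In each of the 10 panels no IL-3 supernatant library falls among the PBS supernatant libraries.

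All 4 acyl-CoA synthetases among the genes changed (100%, against 30.9% of all tested genes), 2 in each direction. Their summed level was 353 ± 11.7 TPM with IL-3 supernatant and 364 ± 11.9 TPM with PBS supernatant (SD, n = 3 each). These enzymes join free fatty acids to coenzyme A and differ in location and preferred substrate. Acsl3, found at the endoplasmic reticulum and on lipid droplets, had 32.5, 33.9 and 34.1 CPM with IL-3 supernatant, against 24.8, 25.0 and 22 CPM with PBS supernatant (log2 0.49 ± 0.09, edgeR adjusted p = 0.00041). Acsl4, which prefers arachidonate, had 263, 295 and 271 CPM with IL-3 supernatant and 252, 208 and 209 CPM with PBS supernatant (log2 0.31 ± 0.07, edgeR adjusted p = 0.0061). Both rose without overlap between groups, although PBS supernatant replicate 1 came close to the IL-3 supernatant values of Acsl4.

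Acsl5, the most abundant of the 4, had 338, 336 and 365 CPM with IL-3 supernatant, against 382, 425 and 430 CPM with PBS supernatant (log2 -0.25 ± 0.06, edgeR adjusted p = 0.0029). Acsl1, the scarcest, had 17.4, 16.1 and 14.9 CPM with IL-3 supernatant, against 20.2, 18.8 and 22.7 CPM with PBS supernatant (log2 -0.35 ± 0.11, edgeR adjusted p = 0.021). Neither pair of groups overlapped. The Acsl1 call was lost without IL-3 supernatant replicate 2 (0.063), IL-3 supernatant replicate 3 (0.093) or PBS supernatant replicate 3 (0.11), each an adjusted p from edgeR. Without Acsl5 the other 3 summed to 138 ± 5.28 TPM with IL-3 supernatant and 112 ± 12.5 TPM with PBS supernatant. The ratio of Acsl4 to Acsl5 in TPM was 0.502 ± 0.0415 with IL-3 supernatant and 0.343 ± 0.0617 with PBS supernatant. Acsl3 overlaps Utp14b, at a mean of 28.5 CPM, on the same strand. Acsl3 held fractional counts in 3 libraries, so some of its reads were divided with another gene. Acsl5 overlaps Zdhhc6 on the other strand.

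In fatty acid oxidation the entry enzyme fell and a pair of dehydrogenases rose. Cpt1a, the carnitine palmitoyltransferase of the outer mitochondrial membrane that limits the entry of long fatty acids (ENSMUSG00000024900, chr19:3322334-3385733 in GRCm38, plus strand), had 32.9, 32.0 and 31.8 CPM with IL-3 supernatant, against 50.7, 52.2 and 55.0 CPM with PBS supernatant. Both groups were tight and far apart, and Cpt1a fell by 38.8% (log2 -0.71 ± 0.08, edgeR adjusted p = 1.6e-06). Cpt2, its partner on the inner membrane, had 14.2, 12 and 14.8 CPM with IL-3 supernatant and 12.2, 13.9 and 14.1 CPM with PBS supernatant (log2 0.02 ± 0.12, edgeR adjusted p = 0.91). The ratio of Cpt1a to Cpt2 in TPM was 1.31 ± 0.145 with IL-3 supernatant and 2.09 ± 0.172 with PBS supernatant (SD, n = 3 each).

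The acyl-CoA dehydrogenases, each suited to a chain length, differed among themselves. Acadm, for medium chains (ENSMUSG00000062908, chr3:153922357-153944632 in GRCm38, minus strand), had 54.0, 56.6 and 56.0 CPM with IL-3 supernatant, against 36.5, 36.3 and 35.0 CPM with PBS supernatant. It rose by 54.6%, with an SD of 1.34 CPM with IL-3 supernatant and 0.842 CPM with PBS supernatant (log2 0.63 ± 0.07, edgeR adjusted p = 3.8e-06). Acadvl, for very long chains, had 86.1, 86.1 and 94 CPM with IL-3 supernatant and 68.2, 76.3 and 77.8 CPM with PBS supernatant (log2 0.26 ± 0.07, edgeR adjusted p = 0.0065), and missed the threshold without IL-3 supernatant replicate 3 (edgeR adjusted p = 0.053). Acadl, for long chains, had 78.2, 79.3 and 80.8 CPM with IL-3 supernatant and 85.4, 85.7 and 95.0 CPM with PBS supernatant, without overlap and without passing (log2 -0.16 ± 0.06, edgeR adjusted p = 0.057). The ratio of Acadm to Acadl in TPM was 0.714 ± 0.0156 with IL-3 supernatant and 0.42 ± 0.0491 with PBS supernatant. Acadvl overlaps Dvl2.

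Hadha and Hadhb, the subunits of the mitochondrial trifunctional protein that completes each round of long-chain oxidation, did not pass, with log2 fold changes of -0.10 ± 0.06 and -0.16 ± 0.07 (edgeR adjusted p = 0.19 and 0.073). When PBS supernatant replicate 1 was left out, Hadhb (-0.23, edgeR adjusted p = 0.0069) and Acadl (-0.19, edgeR adjusted p = 0.035) passed as lower. The 7 oxidation genes summed to 440 ± 13.4 TPM with IL-3 supernatant and 438 ± 21.8 TPM with PBS supernatant.

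**Figure D3:**
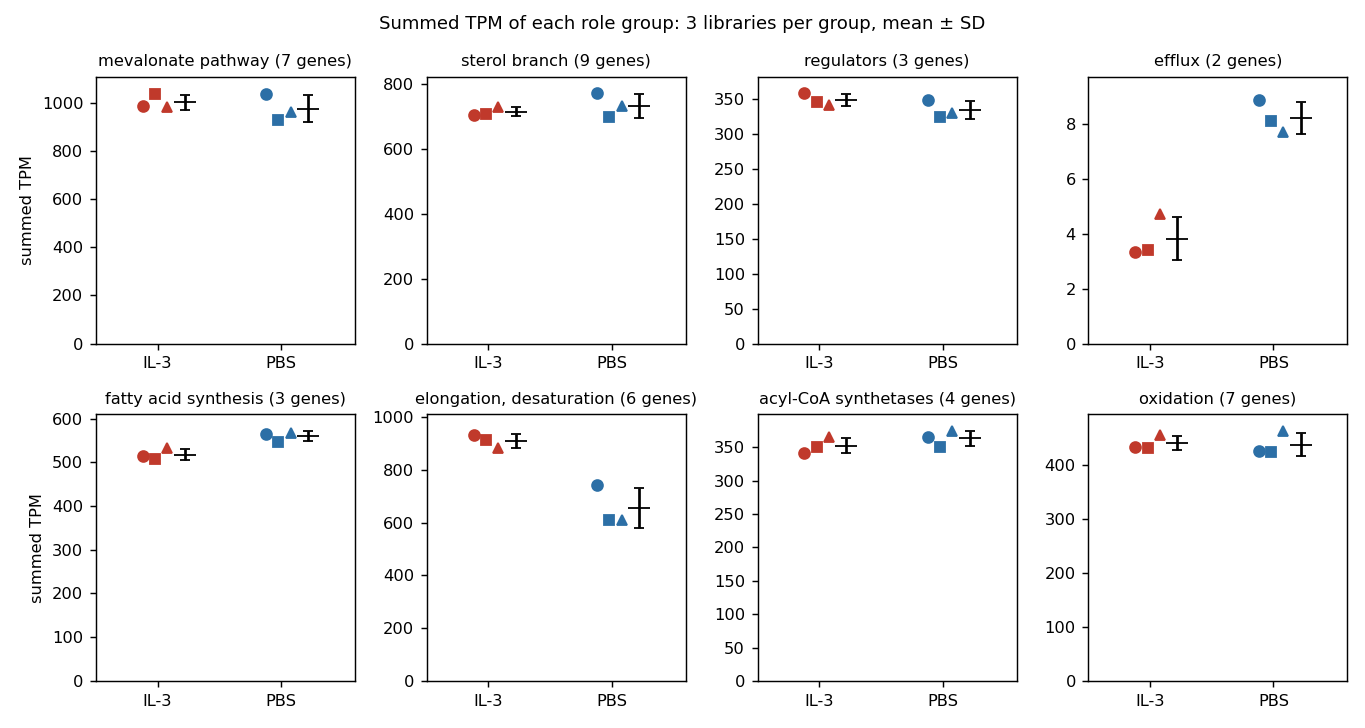
Summed TPM (y axis, from 0) of the 8 role groups in IL-3 supernatant (red, left) and PBS supernatant libraries (blue, right), with single libraries as symbols and mean ± SD of 3 libraries as bars. The groups separate in elongation and desaturation (910 ± 25.5 with IL-3 supernatant and 655 ± 75.4 with PBS supernatant), in efflux (3.82 ± 0.783 and 8.22 ± 0.586) and in fatty acid synthesis, and overlap in the other 5.

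The median coefficient of variation in CPM between replicates over the 41 genes was 4.32% with IL-3 supernatant and 4.88% with PBS supernatant, against medians over all tested genes of 7.48% with IL-3 supernatant and 8.23% with PBS supernatant that were not matched for abundance. The most variable were Abcg1 with IL-3 supernatant (27.1%) and Scd1 with PBS supernatant (25.9%). Most were represented by a single main isoform in PBS supernatant replicate 2, the library deposited with isoform values. There the leading isoform held at least 90% of the TPM in 24 of the 41 genes. Mvk was the most divided, with 45.8% in its leading isoform. Srebf1 had 66.3% in Srebf1-201, and the leading Hadha transcript, with 70.6%, is annotated as a processed transcript and not as protein coding. Isoforms could not be compared between groups from 1 library.

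Other genes of lipid metabolism were taken from 4 lists. These were also drawn up with earlier results of these data known, so the shares called are descriptions. Of 67 tested genes on the 4 lists, 16 rose (23.9%, against 14.8% of all tested genes), 10 fell (14.9% against 16.1%) and 41 did not pass. Of 19 other sterol genes, 4 rose (21.1%) and 7 fell (36.8%), and the share called either way was 57.9%, against 30.9% of all tested genes. Osbpl5, an oxysterol-binding-protein relative, had 3.09, 1.40 and 2.25 CPM with IL-3 supernatant, against 9.29, 10.2 and 13.1 CPM with PBS supernatant (log2 -2.28 ± 0.24, edgeR adjusted p = 4.1e-06). Soat2, which esterifies cholesterol for storage, had 17.4, 15.1 and 10.8 CPM with IL-3 supernatant, against 5.84, 5.87 and 4.79 CPM with PBS supernatant (log2 1.39 ± 0.18, edgeR adjusted p = 1.5e-05). Neither pair of groups overlapped. Erg28, named for a yeast scaffold of sterol enzymes, rose (log2 0.63 ± 0.09, edgeR adjusted p = 3.2e-05).

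Of 17 other genes of fatty acid synthesis and uptake, 4 rose and 1 fell, and the share called of 29.4% was close to the 30.9% of all tested genes. The strongest was Acsl6, a further acyl-CoA synthetase that favours polyunsaturated fatty acids (ENSMUSG00000020333), with 75.5, 65.6 and 77.9 CPM with IL-3 supernatant, against 12.7, 11.7 and 9.24 CPM with PBS supernatant. Its groups lay far apart (log2 2.70 ± 0.11, edgeR adjusted p = 3.7e-11), a larger change than that of any of the 4 synthetases above. Relative to Acsl5, Acsl6 had a TPM ratio of 0.218 ± 0.0145 with IL-3 supernatant and 0.0274 ± 0.00431 with PBS supernatant (SD, n = 3 each). Fads3, a further member of the Fads family, rose at a low level (log2 1.57 ± 0.33). Hacd3, a dehydratase of the elongation cycle, rose at a high one (log2 0.48 ± 0.06), while Mlxip, a sugar-sensing transcription factor, fell (log2 -0.34 ± 0.06). The edgeR adjusted p-values of Fads3, Hacd3 and Mlxip were 0.0015, 1e-05 and 0.00053.

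Of 19 other oxidation genes, 4 rose and the other 15 did not pass, so that 21.1% were called, fewer than the 30.9% of all tested genes. Pparg, the lipid-sensing nuclear receptor, had 3.81, 3.42 and 2.2 CPM with IL-3 supernatant, against 0.111, 0.111 and 0.228 CPM with PBS supernatant. The PBS supernatant values rest on 2, 2 and 4 counts, and Pparg, which is among the 4, passed the filter only through the IL-3 supernatant libraries, so its values are given as a description. Crat, carnitine acetyltransferase, rose (log2 0.61 ± 0.15, edgeR adjusted p = 0.0051). Slc25a20, the carnitine carrier between Cpt1a and Cpt2, had overlapping groups and an edgeR adjusted p of 0.049 (log2 0.30 ± 0.11). Its call was lost without IL-3 supernatant replicate 1 (0.097), IL-3 supernatant replicate 3 (0.25), PBS supernatant replicate 2 (0.11) or PBS supernatant replicate 3 (0.15), each an adjusted p from edgeR.

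Of 12 genes of lipid storage and lipolysis, 4 rose (33.3%, against 14.8% of all tested genes) and 2 fell (16.7% against 16.1%). Mgll, the monoacylglycerol lipase, had 7.06, 5.67 and 3.42 CPM with IL-3 supernatant, against 0.445, 0.720 and 1.2 CPM with PBS supernatant. The PBS supernatant values rest on 8, 13 and 21 counts. Mgll, which is among the 4 that rose, passed the filter only with the IL-3 supernatant libraries, so its values are given as a description. Dgat1, which makes triacylglycerol, had 22.2, 23.1 and 22.6 CPM with IL-3 supernatant, against 13.5, 11.6 and 13.8 CPM with PBS supernatant (log2 0.80 ± 0.10, edgeR adjusted p = 1.5e-05). For Dgat1, every IL-3 supernatant library lay above every PBS supernatant library. Hilpda, a lipid droplet protein that restrains lipolysis, rose (log2 0.51 ± 0.11), and Lpin1, a phosphatidate phosphatase, fell (log2 -0.46 ± 0.11), with edgeR adjusted p = 0.0025 and 0.0031.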

How the data were processed

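Polyadenylated RNA of 6 libraries was sequenced from TruSeq libraries, per the labels' protocols. Per the submitters' processing notes, RSEM 1.2.12, Bowtie2 2.2.0 and edgeR 3.20.9 were named with the GRCm38 build; no source used here gives their roles, the annotation or the strand setting. The authors deposited expected counts per gene for each library, in which a read that fits several genes is divided among them, and TPM. Gene TPM came with 5 libraries, and PBS supernatant replicate 2 had isoform TPM, of which 99.7% could be assigned to a gene and added up. Of the 41 members, 28 held whole counts in all libraries (tolerance 0.001) and 13 held fractions. Groups and replicate numbers came from the sample titles, and symbols and coordinates from the GENCODE annotation of GRCm38 and a table of gene names, which matched 46005 of 46517 identifiers.

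Expected counts were rounded and tested with edgeR 4.0.16 in R 4.3.3: filterByExpr, TMM factors, robust quasi-likelihood fit with a term for group, and Benjamini-Hochberg adjustment over 12407 genes at 0.05. Log2 fold changes give IL-3 over PBS supernatant, SEs follow from the F statistic (the absolute log2 fold change over its root), and CPM use TMM-scaled library sizes. No test was made of a list. Levels of different genes were compared in TPM, except that the more abundant 6204 genes were taken by average log2 CPM. The fit was also run on simulated counts with known changes. These were drawn with the same spread setting for every gene, so they cannot show how calls hold for more variable genes. The members and gene lists were chosen with earlier results of these data known. All 41 members are named, and of each other list up to 4 called genes with the smallest p, of which some are not reported here; Scap, Mbtps1, Mbtps2, Insig2 and the CD4 T cell markers were named after their values were seen. Alternatives were DESeq2 1.42.0 and its size factors, library size alone, other filters, a replicate block, each library left out, limma 3.58.1 on log2 TPM with a pseudocount of 1 or 0.1, voom, a fold of 1.2 and an adjusted p of 0.01. A fit leaving out CT010467.1, with 4.51% of counts in PBS supernatant replicate 2 and 0.433 to 2.2% in the others, and a fit on TPM of 6 libraries were chosen after seeing the data. Tables and plots were made with Python 3.11.15, pandas 2.3.3 and matplotlib 3.10.9.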

Additional observations from a re-analysis of the deposited data

How the results depend on the processing

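No called member changed direction under the 18 alternatives tried for the log2 fold changes. Of the 20 called members, Dhcr7, Scd1, Acsl3, Cpt1a and Acadm kept the call under each of them, and 15 lost it at least once. Against 1834 genes higher and 2001 lower, and 10 members each way, a test against a fold of 1.2 called 928 genes higher, 937 lower, 5 members higher and 4 lower, and an adjusted p below 0.01 called 1217 genes higher. Limma on TPM of 5 libraries called 1156 genes and 6 members higher with a pseudocount of 1 and 1158 genes and 6 members higher with 0.1; without a filter it called 669 genes higher, 820 lower, 3 members higher and 2 lower. With TPM of 6 libraries, Hmgcs1, Lss, Elovl6 and Acsl1 missed the threshold (limma adjusted p = 0.075, 0.21, 0.15 and 0.15). The cause was not tested. Leaving out each library in turn gave 1456 to 1916 genes higher, 1601 to 2102 lower, 7 to 9 members higher and 8 to 12 lower. Without the most abundant member, the difference in summed TPM was -7.59% for efflux (-53.6% with Abcg1), 2.66% for fatty acid synthesis (-7.52% with Fasn) and 23.4% for acyl-CoA synthetases (-2.91% with Acsl5), which the removal of that gene accounts for. Abca1, at 2.60 to 4.01 CPM, had the widest SE of the members (0.25), and the part of depth in this was not tested.

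Same-numbered libraries deviated together with correlations of -0.148, 0.0517 and 0.255. Without the same correlations for differently numbered libraries, these values cannot decide whether the numbers pair the libraries. The labels do not state a pairing, so it is not known. With the replicate block, 1634 genes were called higher and 1776 lower, with 8 members higher and 10 lower, Fdps and Lss missing the threshold.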
